A study of Mus musculus with 272 samples.

Results

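The genes described here are *Trp53*, which encodes the transcription factor p53, and 9 genes of its response (*Mdm2*, *Mdm4*, *Bax*, *Bbc3*, *Pmaip1*, *Ccng1*, *Sesn1*, *Sesn2* and *Trp53inp1*). They were chosen by gene name in GENCODE M21 and all 10 were found among 21938 protein-coding genes on mm10. The study profiled CRISPR-Cas9 repair outcomes in mouse muscle stem cells (MuSCs) and deposited chromatin data for them. Of its 272 samples, 8 are used here, namely 2 replicates each of ATAC-seq, which maps open chromatin, and of ChIP-seq for H3K4me3 (a mark of active or poised promoters), H3K27ac (active promoters and enhancers) and H3K27me3 (Polycomb repression). All 8 libraries came from GFP+ MuSCs sorted from the enzyme-digested hindlimb muscles of Pax7Cas9 mice, in which Cre expressed from *Pax7* switches on a knocked-in Cas9. Every library therefore carries Cre and Cas9, there is no other genotype or treatment to compare with, and the age of the mice and the number of animals per library are not given in the sources used here. The Cas9-EGFP allele, knocked in at *Rosa26*, came from a B6;129 stock and was crossed with Pax7Cre mice. Whether the mice of these 8 libraries had received guide RNAs by AAV9, and so whether Cas9 was cutting in the cells, is not given either. The unit is a peak with its fold enrichment at the summit over local background. Nothing states whether the replicates are separate animals, so each value is given in both and no test was made.

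p53 responds to DNA damage and other stress and is held low in unstressed cells. The ubiquitin ligase Mdm2 marks it for destruction and the related Mdm4 blocks its activity, while p53 itself induces *Mdm2*, which closes a feedback loop. Once stabilised, p53 binds pairs of short half-sites near its targets and turns on genes for arrest, apoptosis, metabolism and repair. Cas9 cuts are DNA breaks, so that this response is of interest in edited stem cells, in which strong p53 activity limits survival and expansion.

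The p53 response element has 2 half-sites of 10 bases. It was searched as the p53 half-site consensus, with no spacer between the half-sites, at most 2 mismatches in all and none at the core C and G. The search covered 8 genes and 20 kb either side (*Pmaip1* and *Trp53inp1* were not searched) and found 18 elements, of which 4 lay in an ATAC-seq peak of both replicates. Those 4 fell at *Mdm2*, *Bax* and *Ccng1*, and are shown because they are the places where the response sequence and open chromatin met. The letters are the plus strand of GRCm38.p6 (mm10) with the element in capitals and, outside exons, 20 flanking bases on each side. The pair at *Mdm2* shares a half-site, so it is 1 site of 3 half-sites.
Mdm2 upstream, chr10:117717726-117717745: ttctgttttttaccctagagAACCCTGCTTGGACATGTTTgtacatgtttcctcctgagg
Mdm2 upstream, chr10:117717736-117717755: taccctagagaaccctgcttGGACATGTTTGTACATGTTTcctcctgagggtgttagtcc
Bax exon, chr7:45466574-45466593: CGACAAGCCCGGGCCTGCCC
Ccng1 promoter, chr11:40755462-40755481: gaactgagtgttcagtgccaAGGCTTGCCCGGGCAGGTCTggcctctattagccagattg
Another element, in the intron of *Ccng1* 366 bp inside the start site, lay in the peak of replicate 2 only and is shown for comparison.
Ccng1 intron, chr11:40754936-40754955: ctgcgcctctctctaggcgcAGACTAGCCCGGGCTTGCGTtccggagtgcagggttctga

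The *Mdm2* site lay 6977 to 6987 bp upstream of the nearest annotated start site, in an ATAC-seq peak of fold 10.2 in replicate 1 and 9.13 in replicate 2. Neither replicate had an H3K4me3, H3K27ac or H3K27me3 peak over it. The *Ccng1* element lay 160 bp before the start site, inside the most open promoter of the 10 genes. H3K4me3 peaks of both replicates covered it, and no H3K27ac peak did. The *Bax* element lay in an exon of *Bax* 192 bp after a start site, under ATAC-seq, H3K4me3 and H3K27ac peaks of both replicates. At *Mdm4* 3 elements, each with 1 mismatch, lay in introns outside any ATAC-seq peak, and 2 of these shared a half-site. *Trp53* and *Bbc3* had no element under this definition, which says only that these letters are not in the window. The density was 3.20 elements per 100 kb at the 8 genes and 0.981 per 100 kb over the assembled chromosomes. The chromosomes were not limited to genes and their flanks, so the stretches compared are unlike by construction. Overlapping elements were counted separately in both. Within 150 bases of an ATAC-seq summit, 2 of 85 windows at these genes held an element in replicate 1 and 2 of 62 in replicate 2 (2.35% and 3.23%), against 0.409% of 140716 and 0.403% of 94382 windows over the whole lists. In replicate 1 the windows were those of 2 neighbouring peaks, 1 over the single *Mdm2* site and 1 beside it. In replicate 2 the windows were 1 at *Mdm2* and 1 at *Bax*, so the shares of both replicates rest on 2 sites. With at most 1 mismatch, 8 elements remained and 2 lay in open chromatin of both replicates, at *Mdm2* and *Ccng1*.

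Promoter sequences from RefSeq (GRCm38.p6, 250 bases before to 50 after a start) matched 8 of the 10 genes with 12 windows. *Mdm2*, the gene with the strongest H3K27ac, and both starts of *Mdm4* are shown with each CG dinucleotide in capitals. At *Mdm4* only the RefSeq window of the inner start touched a peak. The letters are the 250 bases before the start, 5′ to 3′ on the gene's strand, which is the minus strand for both genes.
Mdm2, chr10:117710759-117711008: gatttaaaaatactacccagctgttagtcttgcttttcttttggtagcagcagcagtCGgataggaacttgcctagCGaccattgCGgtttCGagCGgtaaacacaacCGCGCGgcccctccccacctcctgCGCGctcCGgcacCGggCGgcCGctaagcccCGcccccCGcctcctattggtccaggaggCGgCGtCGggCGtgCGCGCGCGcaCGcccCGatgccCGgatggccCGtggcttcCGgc
Mdm4 inner start, chr1:133025417-133025666: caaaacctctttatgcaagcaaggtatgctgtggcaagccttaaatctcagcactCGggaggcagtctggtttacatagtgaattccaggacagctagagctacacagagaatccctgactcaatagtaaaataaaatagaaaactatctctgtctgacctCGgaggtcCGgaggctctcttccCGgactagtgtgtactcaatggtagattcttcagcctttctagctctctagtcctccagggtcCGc
Mdm4 outer start, chr1:133030588-133030837: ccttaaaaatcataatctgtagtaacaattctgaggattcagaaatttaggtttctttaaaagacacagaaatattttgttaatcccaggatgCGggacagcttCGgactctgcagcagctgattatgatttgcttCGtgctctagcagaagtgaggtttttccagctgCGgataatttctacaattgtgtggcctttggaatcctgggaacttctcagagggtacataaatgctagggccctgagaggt
Over the whole window, *Mdm2* held 35 CG dinucleotides, which placed it at percentile 93.4 of 32851 promoter windows. The *Mdm4* windows held 9 at the inner start and 4 at the outer, beside a median of 7 over all windows. The third *Bbc3* window held the most of the 12, 39, and the 3 *Bbc3* windows were 74.7% to 78.0% G or C, beside a median of 52.7% over all windows. *Trp53* lay near that median, with 52.7% G or C and 10 CG dinucleotides.

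A promoter was the stretch within 3 kb of an annotated start of transcription, on both sides. All 10 genes had an ATAC-seq promoter peak in both replicates, as did 67.8% of protein-coding genes. All 10 also had H3K4me3 in both, beside 60.8% of all genes. H3K27ac was found at 9 of 10, beside 46.6%, and the exception was *Pmaip1*. H3K27me3 in both replicates was found at 1 of 10, again *Pmaip1*, beside 4.81%. The 3 marks of open or active chromatin without H3K27me3 in either replicate were found at 8 of 10 genes, beside 44.4% of all genes, the others being *Pmaip1* and *Bbc3*. None of the 10 had all 4 features in both replicates, as did 0.784% of all genes. A promoter without a listed peak counts as unmarked whatever the reason, and the read depth behind the lists is unknown.

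**Figure D1:**
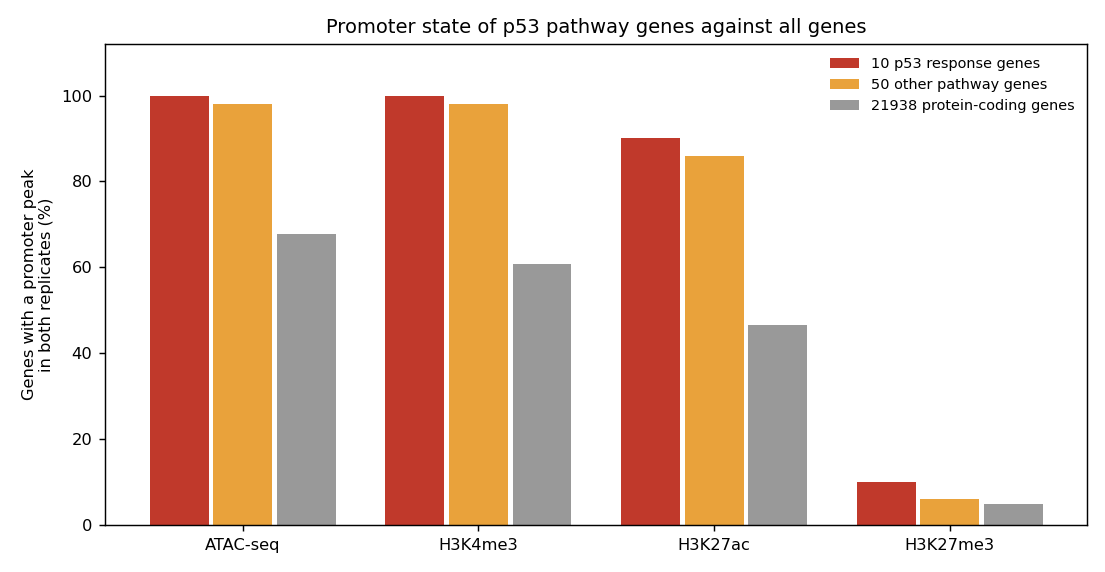
Percent of genes with a promoter peak in both replicates (y axis) for each feature (x axis), for the 10 p53 response genes (red), the 50 other pathway genes (orange) and all 21938 protein-coding genes (grey). The red and orange bars stand above grey for ATAC-seq, H3K4me3 and H3K27ac, and for H3K27me3 all bars are at 10% or less.

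Among the promoters that had a peak, the 10 genes were not all strong. Their median ATAC-seq fold was 13.3 in replicate 1 and 13.9 in replicate 2, beside 13.3 and 12.2 over all protein-coding genes with a peak. For H3K4me3 the medians were 29.2 and 20.4, beside 23.9 and 17.6. For H3K27ac the 9 marked genes had medians of 17.5 and 15.1, beside 13.9 and 12. The fold of H3K4me3 was higher in replicate 1 at all 10 genes, by a ratio of 1.16 to 1.53 with a median of 1.37. The medians over all genes were higher in replicate 1 too, so folds are compared here between genes within a list, by percentile among the genes with a peak.

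**Figure D2:**
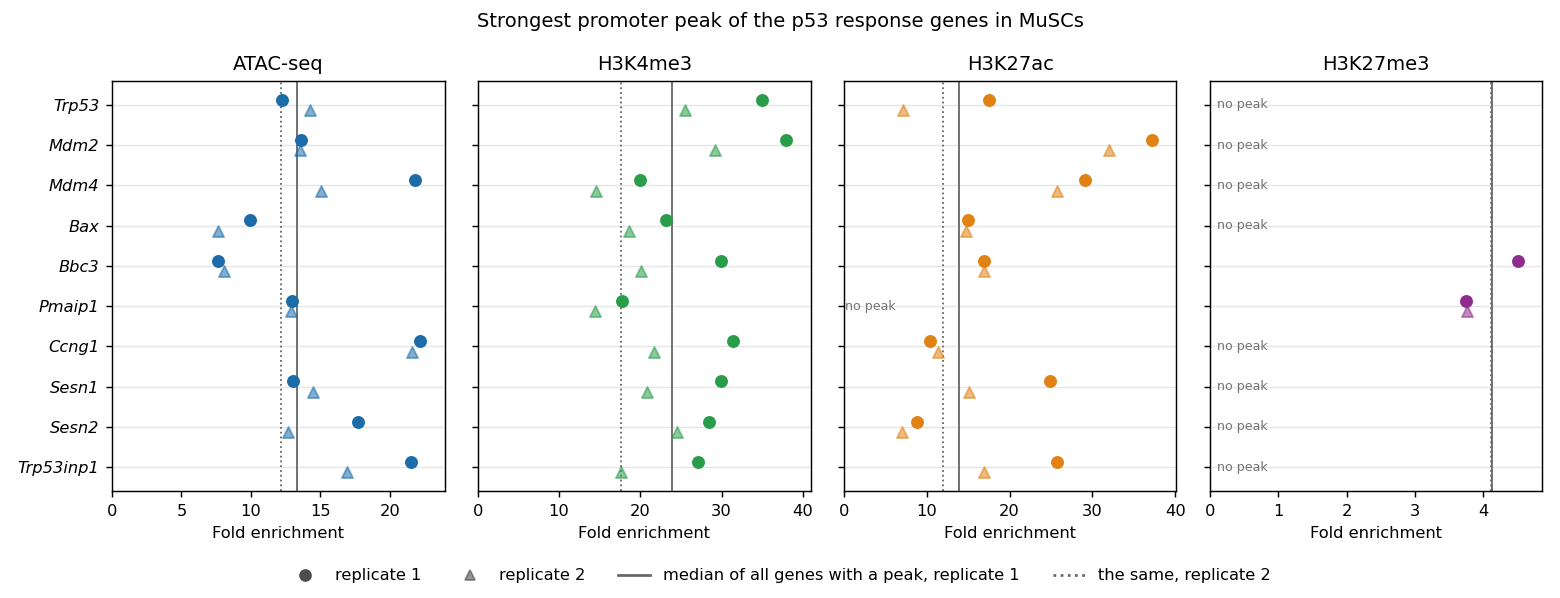
Fold enrichment (x axis) of the strongest promoter peak of each gene (y axis) in replicate 1 (circles) and replicate 2 (triangles), 1 panel per feature, with vertical lines at the median of all protein-coding genes that have a peak. *Mdm2* has the highest H3K27ac in both replicates (37.2 and 32), *Ccng1* is at the top for ATAC-seq (22.2 and 21.6), and *Pmaip1* has no H3K27ac peak.

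*Trp53* (ENSMUSG00000059552.13, chr11:69580359-69591873, plus strand) had a broad active promoter whose strength differed between the replicates. Its H3K4me3 peak was 3693 bp wide in replicate 1 and 3466 bp in replicate 2, with folds of 35 and 25.5. These lay at percentiles 81.8 and 80.5. H3K27ac had a fold of 17.5 in replicate 1 as 1 peak of 3437 bp, and of 7.10 in replicate 2, where it was split into 2 peaks. That ratio of 2.46 was the largest between replicates of any member and feature, and put *Trp53* at percentile 63.0 for H3K27ac in replicate 1 and 21.2 in replicate 2. The strongest ATAC-seq peak was not at the start but about 1 kb before it (summit 1009 bp upstream in replicate 1 and 1027 bp in replicate 2, folds 12.2 and 14.3). A second of similar height lay in the first intron, 1127 and 1133 bp after the start (folds 12.2 and 13.7). At the start itself the fold was 8.23 and 4.67. The divergent gene *Wrap53* starts 104 bp away, and every one of these peaks also lay in its promoter, so the peaks cannot be assigned to either gene.

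By the Euclidean distance between 6 percentiles (ATAC-seq, H3K4me3 and H3K27ac in each replicate), the genes most like *Trp53* of 10126 compared were *Wrap53*, *Hspa4l* and *Bad*. *Wrap53* was at distance 0 because it shares the peaks. *Hspa4l* was at 13.1 and *Bad* at 17.2 percentile points, beside a median of 75.2. Around *Trp53* no peak of H3K27ac lay outside the shared promoter. The H3K4me3 peaks further away lay in the promoters of *Efnb3* (folds 6.99 and 5.25) and *Atp1b2* (15.4 and 12.4), and *Atp1b2* had no H3K27ac.

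*Mdm2* (ENSMUSG00000020184.15, chr10:117688875-117710758, minus strand), the feedback inhibitor, carried the strongest active marks of the 10 genes. H3K27ac had folds of 37.2 and 32, at percentiles 96.5 and 97.6, and H3K4me3 had folds of 37.9 and 29.2, at percentiles 88.3 and 89.8. Both replicates placed *Mdm2* first among the members for each mark. Its openness was ordinary, with ATAC-seq folds of 13.6 and 13.5 at percentiles 52.1 and 59.4. The open region spanned 1000 bp in replicate 2, from the upstream sequence shown above into the first intron, and was 2 neighbouring peaks in replicate 1. The p53-responsive promoter of *Mdm2* is known to lie in the first intron. The search found no element in this open region, which says only that the letters of the definition are not in it. The only element found in an intron of *Mdm2* lay outside every ATAC-seq peak. Beyond the promoter, both replicates had unmarked open chromatin about 7 kb upstream, at the response element above, and about 11 kb upstream (folds 16.4 and 12.3). The only H3K27ac peak within 20 kb was that of the promoter. A single H3K27me3 peak, fold 4.11 and in replicate 2 only, lay downstream towards *Cpm*, whose own promoter had ATAC-seq, H3K4me3 and H3K27me3 peaks in both replicates and no H3K27ac.

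*Mdm4* (ENSMUSG00000054387.13, chr1:132959484-133030561, minus strand), which encodes the partner of Mdm2 that blocks p53 transactivation, has 13 annotated starts, and the marks picked out an inner one. ATAC-seq (folds 21.8 and 15.1), H3K4me3 (20.0 and 14.5) and H3K27ac (29.1 and 25.7) all peaked over the inner start whose sequence is shown above. No peak of the 8 lists touched the RefSeq window of the outer start. H3K27ac was high, at percentiles 89.6 and 92.3, while H3K4me3 was low, at percentiles 39.2 and 37.8. A weaker H3K4me3 peak (7.90 and 6.34) lay about 3.2 kb upstream of the outermost start, with no H3K27ac. At about 9.2 kb upstream lay an unmarked ATAC-seq peak of fold 24.9 and 15.7, higher than that of the promoter in both replicates. Of the ATAC-seq peaks at *Mdm4*, 13 were listed in replicate 1 and 5 in replicate 2. *Mdm4* is preceded by *Pik3c2b*, whose promoter was marked by all 3 active features.

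*Bax* (ENSMUSG00000003873.11, chr7:45461697-45466898, minus strand) encodes a pore-forming effector of mitochondrial apoptosis. Its promoter was among the least open of the 10, with ATAC-seq folds of 9.95 and 7.62 at percentiles 27.6 and 17.7. H3K4me3 (23.1 and 18.6) was near the medians of all genes with a peak, at percentiles 47.7 and 54.2. H3K27ac (14.9 and 14.7) was at percentiles 53.7 and 63.5. *Bax* stands in a gene-dense stretch: *Ftl1* starts 6160 bp away, and *Dhdh*, *Tulp2*, *Gys1* and *Gm45808* also have starts within the region described. Together the region had 13 and 10 ATAC-seq peaks and 4 and 5 H3K27ac peaks. Per 100 kb that was percentile 96.2 and 95.5 of all genes for ATAC-seq, but only 2 and 1 of these peaks lay in the promoter of *Bax* itself.

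*Bbc3* (ENSMUSG00000002083.13, chr7:16308393-16318205, plus strand) encodes Puma, a BH3-only protein that frees Bax and Bak to act. Its ATAC-seq promoter peak was the weakest of the 10 in replicate 1 (fold 7.66, percentile 15) and the second weakest in replicate 2 (8.03, percentile 20.5). H3K4me3 was broad: in replicate 1 it covered 5317 bp (fold 29.9), the widest of the 10, and in replicate 2 it was 2 peaks of 2124 and 2669 bp (19.5 and 20.0). H3K27ac peaked at the innermost start, with folds of 16.9 and 16.9. One H3K27me3 peak of 100 bp lay in this promoter in replicate 1 (fold 4.5, −log10 q 2.09), and replicate 2 had none. The strongest H3K27ac peak of the locus was not the promoter's: it lay about 13.2 kb upstream, at chr7:16294847-16296101 in replicate 1, with folds of 19 and 21.7. That region was open in both replicates (17.2 and 13), more than the *Bbc3* promoter, had weak H3K4me3 (8.14 and 6.40), and lay in the promoter of no annotated gene. No other gene starts within 20 kb of *Bbc3*, and *Bbc3* had 15 and 11 ATAC-seq peaks and 6 and 6 H3K27ac peaks. Its H3K27ac peaks per 100 kb were at percentiles 97.6 and 98.4. Of the 6 and 6 H3K27ac peaks, 2 and 4 lay in its own promoter, and 3 and 5 overlapped a peak of the other replicate.

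*Pmaip1* (ENSMUSG00000024521.8, chr18:66458533-66465565, plus strand) encodes Noxa, another BH3-only protein, and differed most from the rest. Its promoter was open (12.9 and 12.9) and had H3K4me3 of fold 17.8 and 14.4, the lowest of the 10 genes in both replicates. Neither list of H3K27ac had a peak in the promoter, in the gene or within 20 kb. H3K27me3 peaks lay downstream of the start, 2 in replicate 1 and 4 in replicate 2, with summits between 450 and 2364 bp after a start site. They were weak: the strongest had folds of 3.75 and 3.76, and −log10 q of 0.934 and 1.51. None of the peaks of replicate 1 reached a q of 0.05, which is 1.30 on that scale, and the strongest peaks of the replicates shared only their edge, so the H3K27me3 call at *Pmaip1* rests on the looser limit of p 0.001 at which that list was made. Both replicates had an unmarked open site about 7.9 kb upstream (15 and 13.8), higher than the promoter, and a second H3K4me3 peak about 12.5 kb downstream of the start (5.03 and 4.21).

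*Ccng1* (ENSMUSG00000020326.7, chr11:40748552-40755311, minus strand) encodes cyclin G1, which recruits a phosphatase to Mdm2. Its promoter was the most open of the 10, with ATAC-seq folds of 22.2 and 21.6 at percentiles 91.2 and 94.0. H3K27ac did not follow, with folds of 10.3 and 11.4 at percentiles 34.0 and 46.9. H3K4me3 had folds of 31.4 and 21.6, at percentiles 73.0 and 66.5, in the narrowest peak of the 10 (1226 and 959 bp). The H3K27ac peaks began after the start and stopped short of the response element at 160 bp upstream. The locus had 3 ATAC-seq peaks in each replicate, or 6.42 per 100 kb, beside medians of 8.65 and 6.02 over all genes, and the marked region about 20 kb downstream belonged to the promoters of *Nudcd2* and *Hmmr*.

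*Sesn1* (ENSMUSG00000038332.13, chr10:41809935-41908424, plus strand) encodes sestrin 1, which limits mTORC1 signalling under stress, and had 2 active promoters. The outer lay beside the divergent *Cep57l1*, 64 bp away, with H3K4me3 of 26.4 and 20.3 and H3K27ac of 15.2 and 15. The inner, about 77 kb into the gene, was its own and had H3K4me3 of 29.9 and 20.8 and H3K27ac of 24.9 and 15.1. The promoters were alike in H3K27ac in replicate 2 and the inner was the stronger in replicate 1. Openness was 11.6 and 11.7 at the outer and 13 and 14.5 at the inner. In the long intron between them lay an unmarked ATAC-seq peak (18.7 and 16.2) that was higher than either promoter. An ATAC-seq peak of 121 bp downstream of the gene had a fold of 55.9 in replicate 1, the highest at any of the 10 loci, and no counterpart in replicate 2.

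*Sesn2* (ENSMUSG00000028893.8, chr4:132492032-132510501, minus strand) encodes sestrin 2 and has 1 annotated start. It had the weakest promoter H3K27ac of the 9 marked genes in both replicates (8.81 and 6.99, at percentiles 26.7 and 20.1) beside H3K4me3 of 28.5 and 24.5 and ATAC-seq of 17.7 and 12.7. About 4.8 kb upstream, outside every annotated promoter, lay a region with H3K27ac of 8.41 and 8.44, H3K4me3 of 11.7 and 5.32 and ATAC-seq of 11.3 and 15. Its H3K27ac was close to that of the promoter in replicate 1 and above it in replicate 2.

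*Trp53inp1* (ENSMUSG00000028211.11, chr4:11156431-11174379, plus strand) encodes a stress-induced protein of the nucleus and of autophagosomes. Its promoter ranked high in ATAC-seq and H3K27ac and nearer the middle of all genes in H3K4me3. ATAC-seq was 21.5 and 16.9 (percentiles 89.8 and 79.2), H3K27ac 25.7 and 16.9 (percentiles 84.6 and 72.4) and H3K4me3 27.1 and 17.7 (percentiles 59.6 and 50.4). The H3K27ac summit lay upstream of the start, by 291 bp in replicate 1 and 374 bp in replicate 2, where that of the other 8 marked genes lay after it. One ATAC-seq peak inside the gene, 2274 and 2248 bp after an inner start, had folds of 10.6 and 7.40. The other strong peaks of the locus were those of *Ccne2*, the cyclin E2 gene, downstream.

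**Figure D3:**
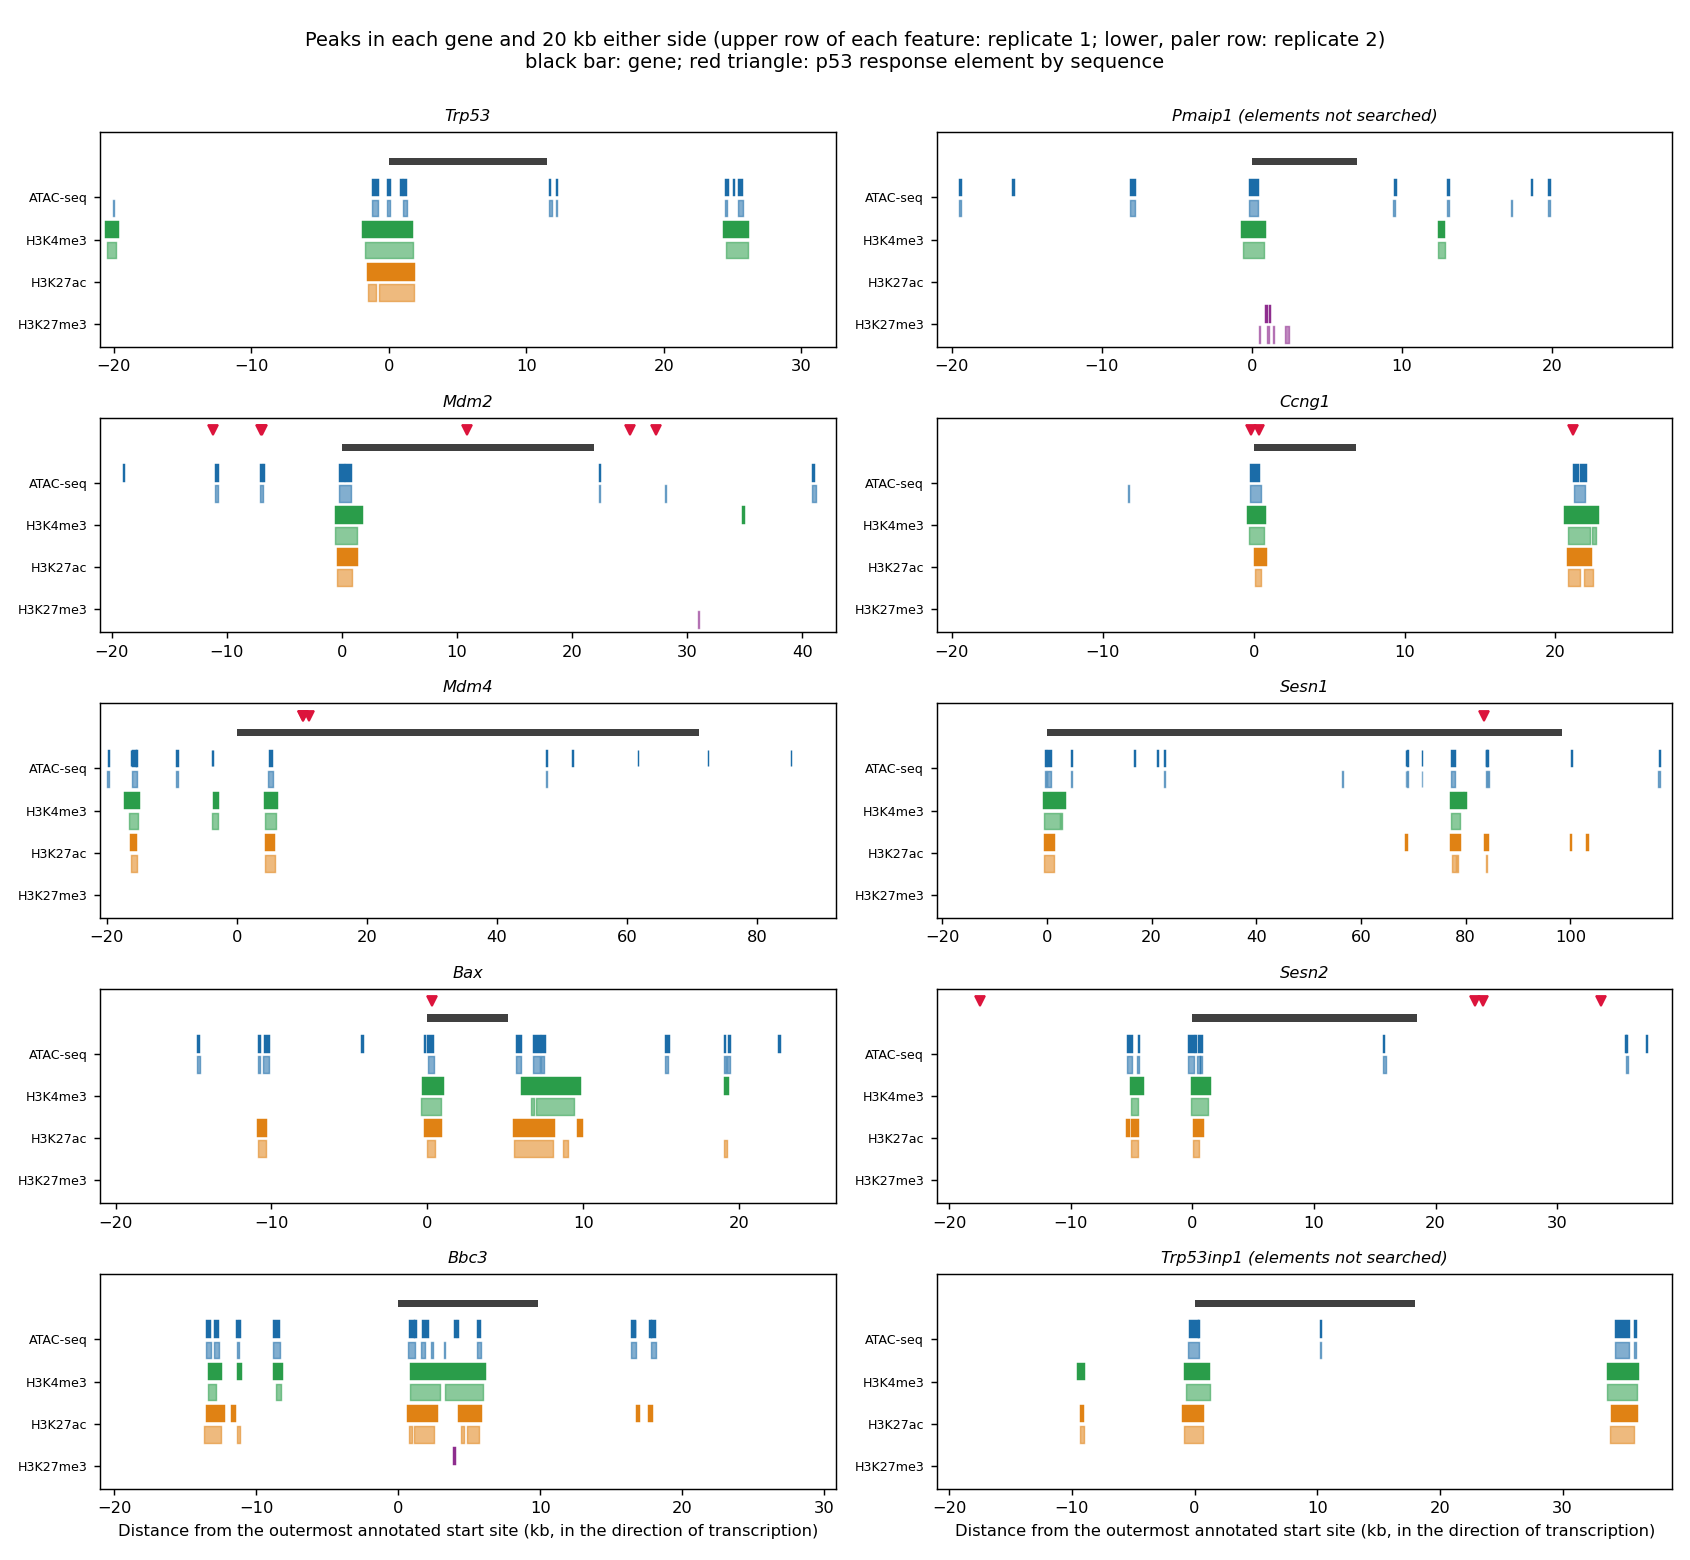
Peaks of each feature (rows, upper replicate 1 and lower replicate 2) by distance in kb from the outermost annotated start site of each gene (x axis, direction of transcription to the right), with the gene as a black bar and p53 response elements as red triangles. The marks cluster at 1 promoter in most genes, at 2 in *Sesn1* and at an inner start in *Mdm4*, and H3K27ac is empty at *Pmaip1*.

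Over the 10 genes and 20 kb either side there were 98 and 73 ATAC-seq peaks, 27 and 26 of H3K4me3, 28 and 28 of H3K27ac and 3 and 5 of H3K27me3. Of the ATAC-seq peaks in replicate 1, 75.5% overlapped a peak of replicate 2, and of those in replicate 2 89.0% overlapped one of replicate 1, beside 62.9% and 84.7% over the whole lists. H3K4me3 peaks recurred at 81.5% and 100%, beside 79.0% and 98.7% over the lists. H3K27ac peaks recurred at 71.4% and 89.3%, beside 64.6% and 91.0%, so that in both marks the shares were near those of the lists. H3K27me3 recurred at 1 of 3 and 1 of 5 peaks, both at *Pmaip1*, where the overlap was of 1 bp (33.3% and 20%, beside 68.3% and 34.8% over the whole lists). Away from every annotated promoter lay 51 and 36 ATAC-seq peaks, 52.0% and 49.3% of those at these genes, beside 61.8% and 57.7% over the lists. H3K27ac of the same replicate lay over 11 of the 51 and 6 of the 36 (21.6% and 16.7%), beside 9.38% and 8.30% of such peaks over the whole lists. These marked sites were those of *Bbc3*, *Sesn1* and *Sesn2*, and the other 7 genes had none. The whole lists set beside these genes were not limited to genes and their flanks, so the sets of peaks compared are unlike by construction.

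The pathway around these genes was described by 50 further genes, listed by role. ATAC-seq and H3K4me3 promoter peaks were found in both replicates at 49 of 50 each, H3K27ac at 43 and H3K27me3 at 3, and 40 of 50 had the 3 active features with no H3K27me3 in either replicate, beside the shares over all genes given above. All 6 upstream kinases and all 6 repair targets were among the 40. *Trp63*, a p53 relative that marks epithelial stem cells, was the gene without H3K4me3, and had an ATAC-seq peak in replicate 1 only (15.7). *Trp73*, the other relative, had all 4 features in both replicates, with H3K27me3 of 3.75 and 4.45 and H3K27ac of 9.96 and 6.62.

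*Cdkn2a*, which encodes the p19Arf protein that holds Mdm2 away from p53 and the inhibitor p16Ink4a, had H3K4me3 of 35 and 25.9 with H3K27me3 of 5.25 and 6.16, and an H3K27ac peak in replicate 2 only (3.47). *Fdxr*, a mitochondrial ferredoxin reductase gene, had H3K27me3 of 5.64 and 4.11 beside H3K27ac of 17.6 and 9.19. *Fas*, a death receptor gene, had H3K27me3 in replicate 2 only (2.76). *Sfn*, *Tnfrsf10b*, *Perp*, *Trp53i11* and *Tigar* were open and had H3K4me3 without H3K27ac in either replicate, as did *Pmaip1*, with H3K4me3 folds between 8.02 and 18.7. Of the 12 apoptosis targets 9 had H3K27ac in both replicates, and of the 8 arrest targets 7 did. The highest H3K27ac by role, by the lower replicate, was at *Hipk2*, a p53 kinase (19.2 and 20.6), *Ep300*, an acetyltransferase that works with p53 (41.4 and 27.6), *Trp73* among relatives, *Gadd45a* among arrest targets (28.7 and 25.7), *Aen*, an apoptosis-linked nuclease (18 and 17.9), *Trp53inp2*, an autophagy gene (44.4 and 28.9), and *Polh*, a translesion polymerase (28.5 and 22.1). By the lower replicate none of the 50 was above *Mdm2*, while in replicate 1 *Trp53inp2* and *Ep300* were.

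**Figure D4:**
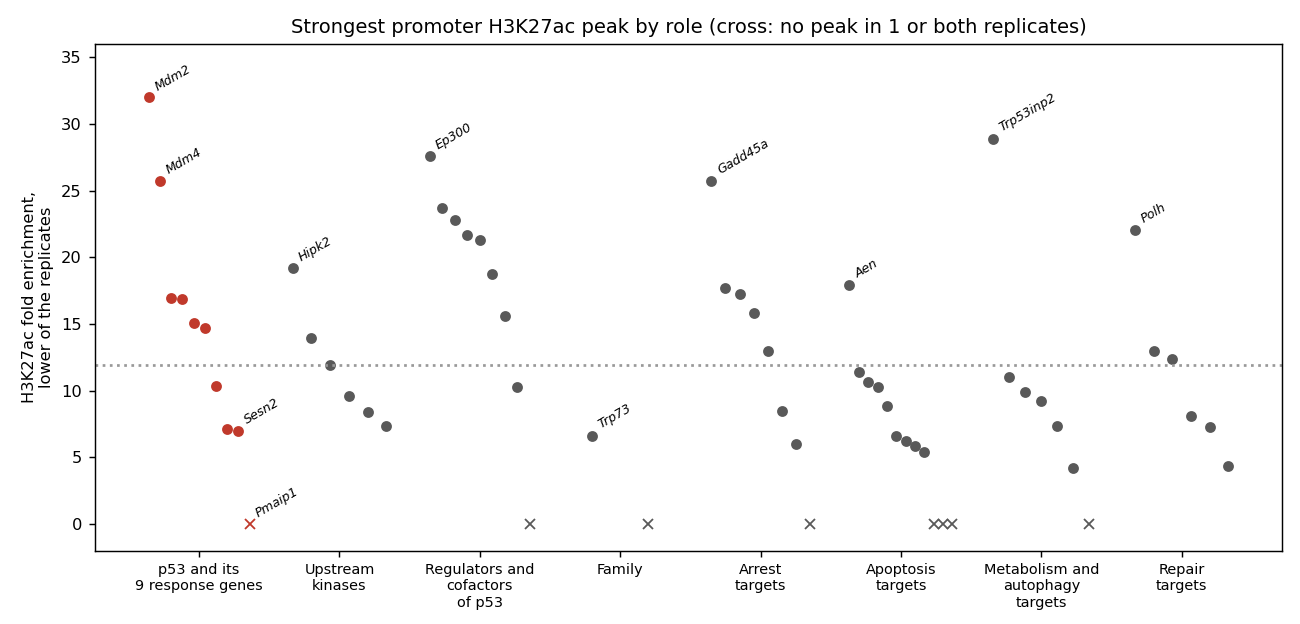
H3K27ac fold enrichment of the strongest promoter peak, the lower of the replicates (y axis), for p53 and its 9 response genes (red) and 50 other pathway genes by role (grey), with crosses at 0 for genes without a peak in both replicates and a dotted line at the median of all genes with a peak in replicate 2. *Mdm2* is highest at 32, and apoptosis targets, the largest role with 12 of the 50 genes, hold 3 of the 7 grey crosses. Of all protein-coding genes, 46.6% had H3K27ac in both replicates.

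The identity of the cells was checked by markers. All 13 MuSC marker genes had ATAC-seq and H3K4me3 promoter peaks in both replicates and 12 had H3K27ac. Of the fibro-adipogenic markers 6 of 10 had ATAC-seq peaks, 5 had H3K4me3 and 3 had H3K27ac. Of the endothelial markers it was 8, 5 and 1 of 10, of the blood markers 7, 4 and 1 of 9, and of the myofibre markers 9, 5 and 3 of 10. Over all protein-coding genes the shares were 67.8% for ATAC-seq, 60.8% for H3K4me3 and 46.6% for H3K27ac. Markers of other cell types therefore also had open or H3K4me3-marked promoters in these lists, as did many genes of any kind. The part of such cells in the values above was not tested. The lists held 140716 and 94382 ATAC-seq peaks, 20512 and 18001 of H3K4me3, 24209 and 18584 of H3K27ac and 6064 and 10458 of H3K27me3, so replicate 1 was the longer for each feature but the last. The part of these lengths in the differences between replicates at single genes was not tested.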

How the data were processed

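Peak lists of 8 libraries of MuSCs were used, 2 per feature. The authors trimmed reads with Trim Galore 0.6.10, aligned them to mm10 with BWA 0.7.17-r1188, dropped poorly mapped and duplicate reads and blacklisted regions, shifted ATAC-seq reads for the Tn5 offset (deepTools 3.5.5) and called peaks with MACS2 2.2.6 in each replicate separately. In the deposited lists the fold is a ratio of the signal at the summit to local background, the p-value and q-value are on the −log10 scale, and the integer score was not used. The H3K27me3 lists hold peaks up to p 0.001, a looser limit than the others. A shallower library lists fewer peaks, and since read totals are not among the columns, depth is unknown and intervals are left out.

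Peaks on 21 chromosomes were joined to GENCODE M21 by an overlap of at least 1 bp (Python 3.11.15, numpy 2.4.6, pandas 2.3.3), after a check of the overlap and motif code on simulated data. A gene had a feature where each replicate listed a peak in its promoter, and the strongest such peak by fold gave its value. The background is the same count over 21938 protein-coding genes. Elements were searched in GRCm38.p6. The genes named are the 10 members, pathway genes that lack an active feature in both replicates or have H3K27me3 in either, the highest H3K27ac per role, and neighbours. The genes and lists were chosen with earlier results of these data known. The amplicon libraries and ChIP input libraries were not analysed here.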

Additional observations from a re-analysis of the deposited data

How the results depend on the processing

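No paired analysis was possible because no result comes from a test. Of 103 recomputed values, 82 stayed within 1.5 times the value reported, among them all counts of member and pathway promoters with ATAC-seq, H3K4me3 or H3K27ac. The H3K27me3 count of members, 1 as reported, fell to 0 with −log10 q of at least 5 and to 0 with q of at most 0.05, and ranged from 1 to 2 with a replicate left out, *Bbc3* being the second. That of the other pathway genes fell from 3 to 0 with −log10 q of at least 5. Peaks per replicate at the 10 genes (mean of both) were 85.5 for ATAC-seq, 56.5 with 10 kb flanks and 142.5 with 50 kb flanks, and with 50 kb flanks 44 for H3K4me3 (26.5 with 20 kb), 50 for H3K27ac (28) and 10 for H3K27me3 (4, and 0 with −log10 q of at least 5). The share of H3K27me3 peaks found in the other replicate fell from 26.7% to 0% when 50% of the shorter peak had to be shared. Away from promoters, H3K4me3 peaks rose from 4.5 to 7 and H3K27me3 peaks from 0.5 to 2.5 with 1 kb promoters. With −log10 q of at least 5, H3K27ac peaks there fell from 7 to 3 and H3K27me3 peaks to 0. With a replicate left out they ranged from 4 to 10 and from 0 to 1, since replicate 2 had 4 H3K27ac peaks and replicate 1 had 10. With at most 1 mismatch, elements numbered 8 instead of 18, and those in open chromatin 2 instead of 4. With at most 1 mismatch and a spacer of up to 13 bases, elements numbered 41, and 3 lay in open chromatin. No read depth is known, so an absent peak is not an absent mark.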
